A study of Mus musculus with 2 samples.

Results

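The MHC class II pathway was followed through 10 genes in mature thymocytes of mice that lack a chain of the class II molecule. The genes were taken by symbol from both count tables, and all 10 were among the 48321 genes listed. They are the classical chains *H2-Ab1*, *H2-Aa*, *H2-Eb1* and *H2-Eb2*, the invariant chain gene *Cd74*, the chains of the DM and DO molecules (*H2-DMa*, *H2-DMb1*, *H2-Oa* and *H2-Ob*), and *Ciita*. RNA came from sorted CD4- mature thymocytes (CD24 low, TCRβ high) of *MHC-II0:CD8ab Tg* mice on the C57Bl/6 strain, in 2 replicates. These mice carry *I-Ab-/-* and *Cd8 Δab/Δab*, which disrupt I-Aβ and both endogenous CD8 genes (a human CD2 cDNA stands in place of the first *Cd8a* exon, and an exon of *Cd8b1* is deleted). They also carry cDNAs for CD8α and CD8β in *Rosa26* (*Rosa26 8a/8b*), which Cre recombinase switches on from the *Cd4-Cre* transgene during thymocyte development. The labels call the same cells CD4-CD8- in the titles and CD8+ in the cell type field, and the population is named here after the study's methods. The age of the mice and whether animals were pooled are not given in the sources used here. Libraries from MHC class II-sufficient mice were not analysed here, and every value below is a level in the transgenic cells alone. The labels do not say how many mice each replicate holds, and p-values refer to these libraries only.

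Classical class II molecules are pairs of an α and a β chain that carry peptides to CD4+ T cells. I-A is made from *H2-Aa* and *H2-Ab1*, and the β chain of I-E comes from *H2-Eb1*. C57BL/6 mice have no I-E at the surface because the Eα gene is defective in their haplotype, and the gene is named *H2-Ea-ps* for that reason. The invariant chain fills the groove until it is degraded in the endosome, DM then exchanges its last fragment for peptide, and DO restrains DM. CIITA is the coactivator that turns these genes on together, on a platform of RFX and NF-Y factors bound at their promoters. In the mouse, B cells, dendritic cells, macrophages and thymic epithelial cells are the usual carriers of class II, and resting mouse T cells are known for its absence.

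The promoters of the class II genes are shown because they carry the shared letters through which that platform is described. RefSeq promoters on GRCm38.p6, each covering 250 bases before to 50 bases after a gene start, were matched for 7 of the 10 members. *H2-Ab1*, *Cd74* and *Ciita* were not among them. The first sequence searched on both strands was CCAAT, the box that NF-Y binds, which reads as ATTGG when it lies on the other strand. It was found in a promoter of all 7 matched members, and 37.4% of the 32851 promoters in the table hold it. For *H2-DMa* it was found only in the promoter at 34125268 to 34125567, 198 bases before the start. In the other matched members it lay 35 to 100 bases before the start. The second was TGACGTCA, the palindrome known as a cyclic AMP response element, which was found only in *H2-Aa* among the matched members and is held by 1.79% of all promoters. A pair of letter groups was then chosen after the promoters were read, namely GNAAC followed by ATTGG on the strand of the gene. It occurred in 6 of the 7 matched members, with 30 to 33 bases from the first letter of one group to the first letter of the other. At this spacing the pair was found in 116 of the 32851 promoters, or 0.353%. Because the spacing was read from the members themselves, that share describes how rare the letters are and is no test. The pair was not found in any promoter of the 68 other genes that were examined by list and have an entry, *H2-DMb2* included. The 120 bases that end 31 bases before the gene start are printed below 5′ to 3′ along the gene for the 6 members with the pair. Capitals mark the pair and any further CCAAT box or cyclic AMP response element.
H2-Aa, chr17:34287854-34287973, minus strand: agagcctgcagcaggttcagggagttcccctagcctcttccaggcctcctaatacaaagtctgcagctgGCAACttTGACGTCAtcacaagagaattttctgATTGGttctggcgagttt
H2-Eb1, chr17:34305717-34305836, plus strand: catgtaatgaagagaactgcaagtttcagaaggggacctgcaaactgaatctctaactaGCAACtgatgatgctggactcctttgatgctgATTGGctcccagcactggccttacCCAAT
H2-Eb2, chr17:34325525-34325644, plus strand: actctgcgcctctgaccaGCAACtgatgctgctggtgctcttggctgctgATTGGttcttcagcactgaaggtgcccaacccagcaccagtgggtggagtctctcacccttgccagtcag
H2-DMb1, chr17:34153041-34153160, plus strand: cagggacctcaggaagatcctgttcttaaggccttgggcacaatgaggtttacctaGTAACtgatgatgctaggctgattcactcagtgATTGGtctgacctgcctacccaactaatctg
H2-Oa, chr17:34092229-34092348, plus strand: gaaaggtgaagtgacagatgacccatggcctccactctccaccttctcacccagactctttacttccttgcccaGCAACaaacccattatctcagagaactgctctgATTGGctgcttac
H2-Ob, chr17:34238755-34238874, plus strand: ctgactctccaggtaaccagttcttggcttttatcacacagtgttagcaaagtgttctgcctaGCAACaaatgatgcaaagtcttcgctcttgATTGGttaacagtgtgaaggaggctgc

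The spacing was 33 bases in *H2-Aa*, *H2-DMb1* and *H2-Oa*, 32 bases in *H2-Eb1* and *H2-Eb2*, and 30 bases in *H2-Ob*. *H2-DMa* has 2 promoters among those searched, at 34122582 to 34122881 and at 34125268 to 34125567, and the pair was found in neither. Both lie within the annotated gene, which runs from 34119541 to 34139101, and other parts of it were not searched. Among the genes with the pair, levels ran from 0.0443 for *H2-Eb2* to 15.1 for *H2-Oa*. These are in CPM per kb of exon, a unit explained with the levels below. Any relation between the pair and the level was not tested. *H2-DMa*, in which the promoters searched did not hold the pair, was at 15.0. That level is uncertain, because 360 bases of its exons overlap *Brd2* on the opposite strand.

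Poly(A) libraries were sequenced as single-end reads of 50 bases, and 16732644 and 16245849 reads were counted on genes in replicates 1 and 2. A level is given as CPM, the counts on a gene scaled to a common total of counts on all genes, as usual for CPM, and the smallest level that can be shown was set at 3 counts, equal to 0.179 CPM in replicate 1 and 0.185 CPM in replicate 2. Wilson 95% intervals cover counting error only. The T-cell label was borne out by 9 of 9 T-cell markers, from 39.5 CPM per kb for *Cd247* to 446 CPM per kb for *Trac*, while *Cd4* had 12 and 27 counts. The libraries stand apart in sex-linked genes. The Y-linked gene *Ddx3y* had 2450 counts in replicate 1 but 0 in the other library, and *Xist* had 34 and 25266. The libraries therefore did not come from the same mouse, and any difference between them cannot be told apart from a difference in sex.

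*H2-Ab1*, which encodes the I-Aβ chain missing in these mice, is the altered gene and was examined first. Its position on GRCm38 is chromosome 17, plus strand, 34257689 to 34269419. Replicate 1 held 395 counts, or 23.6 CPM (interval 21.4 to 26.1), and replicate 2 held 292, or 18.0 CPM (interval 16.0 to 20.2). The intervals of the libraries did not overlap, with replicate 1 higher. The mean was 20.8 ± 3.98 CPM (SD, n = 2). A count table holds no read positions, so reads from the disrupted allele cannot be told apart from those of an intact one, and the level is no check of the genotype.

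The other classical chains were near the smallest level that can be shown. *H2-Aa*, the partner of *H2-Ab1* in I-A, is on chromosome 17, minus strand, 34282744 to 34287823, and had 9 and 4 counts, equal to 0.538 and 0.246 CPM. *H2-Eb1*, the I-E β chain, lies on the plus strand from 34305867 to 34316674 and had 3 and 7 counts, or 0.179 and 0.431 CPM. *H2-Eb2*, a further β chain gene beside it from 34325665 to 34341412, had 4 counts and 1 count, or 0.239 and 0.0616 CPM. For all 3 genes the counting intervals of the libraries overlapped. *H2-Ea-ps*, the defective Eα gene of this strain, had 0 counts in both libraries, so a level above 3 counts was not seen at this depth.

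Among the counts on these 4 classical chain genes, *H2-Ab1* thus took 395 of 411 in replicate 1 and 292 of 304 in replicate 2. That was 96.1% in both, with Wilson intervals of 93.8% to 97.6% and 93.2% to 97.7%. After division by exon length the share was 96.3% ± 0.683 (SD, n = 2). Per kb of exon, *H2-Aa* stood at 0.0154 of *H2-Ab1* in replicate 1 (exact 95% interval 0.00699 to 0.0295) and at 0.00926 in replicate 2 (0.00251 to 0.0240). The α and β genes of the same molecule were therefore far from equal in RNA in each library.

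The plot of the 10 members by library shows this split, with a high and a low set on a common axis.

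**Figure D1:**
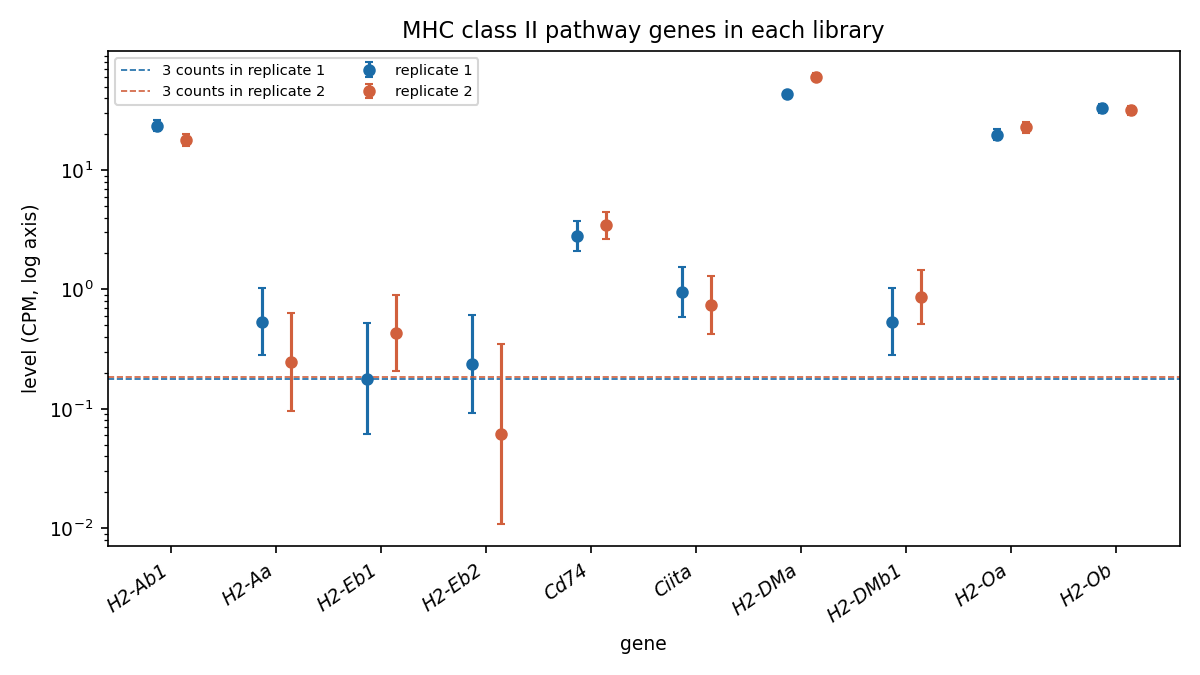
Level of each class II pathway gene in CPM (log axis) in replicate 1 (blue) and replicate 2 (orange), with Wilson 95% counting intervals as bars and dashed lines at 3 counts in each library. *H2-Ab1*, *H2-DMa*, *H2-Oa* and *H2-Ob* lie between 18.0 and 60.8 CPM, and the other 6 genes at or under 3.45 CPM.

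*Cd74*, the invariant chain, was low in both libraries. It lies on the plus strand of chromosome 18 from 60803848 to 60812652 and had 47 and 56 counts, equal to 2.81 CPM (interval 2.11 to 3.73) and 3.45 CPM (2.65 to 4.48). In cells that present on class II, *Cd74* is among the most abundant transcripts. Per kb of exon it stood here at 0.182 of *H2-Ab1* in replicate 1 and at 0.293 in replicate 2, so it was below the β chain in each.

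*Ciita*, the coactivator, was low in both libraries. It lies on the plus strand of chromosome 16 from 10480059 to 10528418, and it had 16 and 12 counts, equal to 0.956 and 0.739 CPM, with intervals that overlapped. *Nlrc5*, the related coactivator that acts on class I genes, had 6351 and 6797 counts. Per kb of exon, *Ciita* was at 0.00191 ± 0.000475 (SD, n = 2) of *Nlrc5*. Exons of *Ciita* overlap 329 bases of *Dexi* on the opposite strand. Since the strand setting of the counting is not given in the sources used here, reads in such a stretch cannot be assigned with certainty.

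The chains of DM differed from each other. *H2-DMa* lies on the plus strand of chromosome 17 from 34119541 to 34139101 and had 720 counts in replicate 1 against 987 in the other library. These are 43.0 CPM (interval 40.0 to 46.3) and 60.8 CPM (57.1 to 64.7), with replicate 2 higher and no overlap of the intervals. Its partner *H2-DMb1*, from 34153072 to 34160230 on the plus strand, had 9 and 14 counts, or 0.538 and 0.862 CPM. The copy *H2-DMb2* had 8 and 19 counts.

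Both DM β genes were thus low where the α gene was not. Per kb of exon, *H2-DMb1* was at 0.0256 of *H2-DMa* in replicate 1 (exact interval 0.0117 to 0.0489) and at 0.0291 in replicate 2 (0.0158 to 0.0491). Of the windows of 50 bases in *H2-DMb1* transcripts, 22.7% also occur in *H2-DMb2*, and reads that align to several places were not counted, so the counts of these genes are uncertain. *H2-DMa* has 360 bases of exon in common with *Brd2* on the opposite strand. *Brd2*, which encodes a bromodomain protein, had 5562 and 5950 counts, several times those of *H2-DMa*. The part of *Brd2* reads in the *H2-DMa* counts was not tested.

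Both chains of DO were found. *H2-Oa*, the α chain gene, lies on the plus strand from 34092340 to 34095234 and had 331 and 370 counts, equal to 19.8 and 22.8 CPM. *H2-Ob*, the β chain gene, lies on the plus strand from 34238903 to 34254414 and had 550 and 514 counts, equal to 32.9 CPM (30.2 to 35.7) and 31.6 CPM (29.0 to 34.5). The intervals of the libraries overlapped for each gene. The ratio of *H2-Oa* to *H2-Ob* per kb of exon was 2.53 ± 0.319 (SD, n = 2). This ratio is much closer to 1 than that of *H2-DMb1* to *H2-DMa*, although *H2-Oa* overlaps 321 bases of the antisense gene *BC051537*, which had 95 and 100 counts. The ratio of *H2-Oa* to *H2-Ob* also depends on the length used. With the longest transcript as length, *H2-Oa* was at 15.9 and *H2-Ob* at 12.1 CPM per kb, and so closer together.

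Genes of different length were ordered by CPM per kb of exon, using the union of exons of each gene in GENCODE M21. *H2-Oa* (15.1 ± 1.50, SD, n = 2) and *H2-DMa* (15.0 ± 3.63) came first and were not separated by their spread. *H2-Ab1* followed at 8.10 ± 1.55 and *H2-Ob* at 6.00 ± 0.162, each separated from the next by more than the summed SDs. *Cd74* was at 1.86 ± 0.269 and *H2-DMb1* at 0.416 ± 0.136, which were also separated. Below them *H2-Eb1* (0.157 ± 0.0915), *H2-Aa* (0.103 ± 0.0543), *Ciita* (0.0889 ± 0.0161) and *H2-Eb2* (0.0443 ± 0.0370) were not separated from their neighbours in the order. With the longest transcript as the length, only 5 of the 10 genes kept their place. The order then ran from *H2-DMa* at 25.9 through *H2-Ab1* at 17.2 and *H2-Oa* at 15.9 to *H2-Ob* at 12.1 CPM per kb, and these 4 genes led under both lengths.

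For scale, 11740 protein-coding genes were above 3 counts in both libraries, which is 55.5% of those listed, and their median was 5.78 CPM per kb. Among the 10 members, 8 were above 3 counts in both, the exceptions being *H2-Eb1* and *H2-Eb2*. By level per kb, *H2-Oa* lay at percentile 76.0 of the detected protein-coding genes and *H2-DMa* at percentile 75.9. *H2-Ab1* lay at percentile 58.9 and *H2-Ob* at percentile 51.0, so these 4 genes were in the middle or upper part of what the cells express. *Cd74* was at percentile 28.3 and *H2-DMb1* at percentile 13.4, and no other member was above percentile 6.20. The protein-coding genes nearest to *H2-Ab1* over the 2 libraries, by Euclidean distance in log2 CPM per kb among 11739 genes, were *Rsad2* (distance 0.07), *Klhdc1* (0.10) and *Basp1* (0.11). *Rsad2* encodes the antiviral protein viperin. With 2 libraries of 1 condition, this likeness is no more than a similar level and a similar ratio of the libraries.

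Neighbouring genes of the region were examined next, since 8 of the 10 members lie together on chromosome 17 between *H2-Oa* and *H2-Ea-ps*. This stretch runs from 34092340 to 34344645 on GRCm38, or 252 kb, and holds 14 listed protein-coding genes, of which 6 are no members. *Psmb9* and *Psmb8*, subunits of the immunoproteasome, and *Tap1* and *Tap2*, which carry peptides to class I molecules, sit in its middle. They were at 45.7 ± 4.40, 117 ± 3.27, 80.2 ± 3.60 and 83.1 ± 0.963 CPM per kb (SD, n = 2). *Brd2* was at 44.6 ± 3.06. All 5 were above every class II member of the region in both libraries, and *H2-DMb2*, at 0.472 ± 0.280, was the sixth.

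*H2-Ob* starts at -18.8 kb from the *H2-Ab1* start, and the ratio of *H2-Ab1* to *H2-Ob* per kb was 1.35 ± 0.222 (SD, n = 2). *H2-Aa* starts at 30.1 kb on the other side and was at 0.0123 ± 0.00434 of *H2-Ab1* per kb, and *H2-Eb1* and *H2-Eb2*, at 48.2 and 68.0 kb, were at 0.0209 ± 0.0153 and 0.00513 ± 0.00359. A low level was therefore found for each of these classical chain genes. No other classical chain gene lies on the *H2-Ob* side of *H2-Ab1* in this region, so level and side could not be compared. No 50-base window of *H2-Ab1* transcripts occurs in transcripts of other genes, and no exon of another annotated gene overlaps it.

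**Figure D2:**
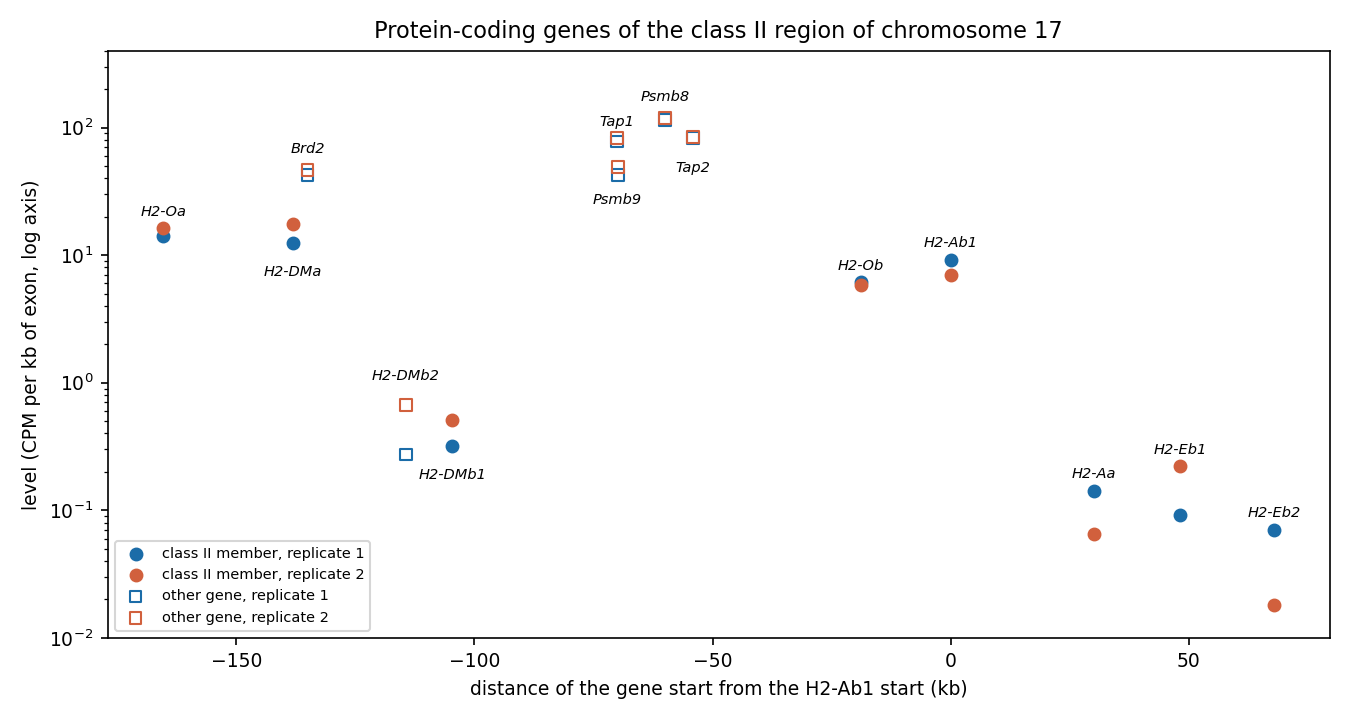
Level in CPM per kb of exon (log axis) of the 14 listed protein-coding genes of the class II region against the distance of their start from that of *H2-Ab1* in kb, with filled circles for class II members, open squares for other genes, blue for replicate 1 and orange for replicate 2. *Psmb9*, *Tap1*, *Psmb8* and *Tap2* lie above 40 in both libraries, and *H2-Aa*, *H2-Eb1* and *H2-Eb2* under 0.25.

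The rest of the class II machinery was described from lists of genes. All 7 genes for the DNA-binding platform, *Rfx5*, *Rfxank*, *Rfxap*, *Nfya*, *Nfyb*, *Nfyc* and *Creb1*, were above 3 counts in both libraries. They ranged from 7.94 CPM per kb for *Nfyb* to 12.3 for *Creb1*, with a median of 9.86, which is above the median of 5.78 over all detected protein-coding genes. *Rfx5*, a subunit of the RFX complex, had 728 and 976 counts against the 16 and 12 of *Ciita*. The platform genes were thus found at ordinary levels where the coactivator was not.

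Genes for processing and turnover of class II covered a wide range, and 8 of 9 were above 3 counts in both libraries. *Ctss*, the cathepsin that cuts the invariant chain in antigen-presenting cells, was the highest of the list at 113 ± 6.99 CPM per kb (SD, n = 2). *Ctsd*, another endosomal protease, was at 94.6 ± 8.10, and *Ifi30*, the thiol reductase of endosomes, at 15.6 ± 0.286. *Sppl2a*, the protease that removes the last membrane stub of the invariant chain, was at 10.9 ± 0.521. *March1*, the ubiquitin ligase that takes class II from the surface, was the lowest with 0 and 3 counts. Several of these proteases act in every cell, so their levels are not particular to class II.

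Partners of the pathway on the T cell itself were also present. *Lag3*, an inhibitory receptor for class II, had 205 and 262 counts and was at 6.73 ± 1.30 CPM per kb (SD, n = 2). *Cxcr4* and *Cd44*, which encode partners of CD74 at the cell surface, were at 96.7 ± 2.58 and 15.4 ± 2.44, and *Mif*, the ligand of CD74, was at 47.5 ± 3.18. These 4 genes were above *Cd74* in both libraries, and *Cd4*, the coreceptor for class II, was at 0.295 CPM per kb.

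Class I genes gave the opposite picture to the classical class II chains. *H2-K1*, a classical class I heavy chain, was at 930.5 ± 46.5 CPM per kb and *B2m*, the light chain of class I, at 2238 ± 69.2 (SD, n = 2). The lowest of the 9 class I genes examined was *Psmb9* at 45.7, above the highest class II member at 15.1. *H2-Ab1* was at 0.00875 ± 0.00210 of *H2-K1* per kb and *Cd74* at 0.000835 ± 0.000146 of *B2m*.

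Markers of the usual class II-bearing cells were counted beside *H2-Ab1*, *H2-DMa* and the DO chains, and their part in those levels was not tested. In bulk RNA, fewer cells of a type and less RNA per cell cannot be told apart. For B cells, 4 of 9 markers were above 3 counts in both libraries, and the list summed to 147 CPM in one library and 152 CPM in the other. *Ighm* made up nearly all of this sum at 134 CPM (2221 and 2209 counts), followed by *Cd79b* at 12.8 CPM (196 and 227 counts). Among the other listed markers, *Cd79a* had 21 and 15 counts, *Ms4a1* 8 and 5, and *Cd22* 3 and 7. *Ebf1* had 1 and 5 counts, *Igkc* 2 and 0, and *Pax5* 1 and 0.

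The lists for myeloid and epithelial cells had lower sums than the B-cell list, whose sum was nearly all *Ighm*. By median marker level, B cells were at 0.0635 and thymic epithelial cells at 0.0946 CPM per kb. Dendritic cells were at 0.0401 and macrophages at 0.0380 by the same measure. Of 8 dendritic cell markers, *Zbtb46* (47 and 43 counts) and *Xcr1* (41 and 39) were above 3 counts in both libraries. The sum for the list was 5.86 and 5.66 CPM. *Clec9a*, *Cd209a* and *Clec10a* had 0 counts in both, and *Flt3*, *Itgax* and *Siglech* had 2 to 5. Of 9 macrophage markers, *Csf1r* (163 and 191 counts) and *Cd68* (51 and 47) were above 3 counts in both. The list summed to 12.8 and 15.5 CPM, most of it from *Csf1r* at 9.74 and 11.8 CPM. *Adgre1* had 0 and 4 counts, and *C1qa*, *C1qb*, *C1qc*, *Lyz2*, *Fcgr1* and *Mertk* had at most 2 in either library. Of 8 thymic epithelial markers, *Epcam* (50 and 53 counts), *Psmb11* (9 and 11) and *Cldn4* (9 and 17) were above 3 counts in both. The list summed to 4.54 and 5.66 CPM, while *Foxn1* had 1 and 0 counts, *Aire* 3 and 3, and *Krt5*, *Krt8* and *Krt18* 1 to 4. Of 7 markers of immature double-positive thymocytes, 5 were above 3 counts in both libraries, and the list summed to 299.7 and 369 CPM. *Rmnd5a* made up most of this sum with 4742 and 5719 counts, *Dntt* had 224 and 211, *Rag1* had 8 and 19, and *Rag2* and *Ptcra* had at most 4.

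**Figure D3:**
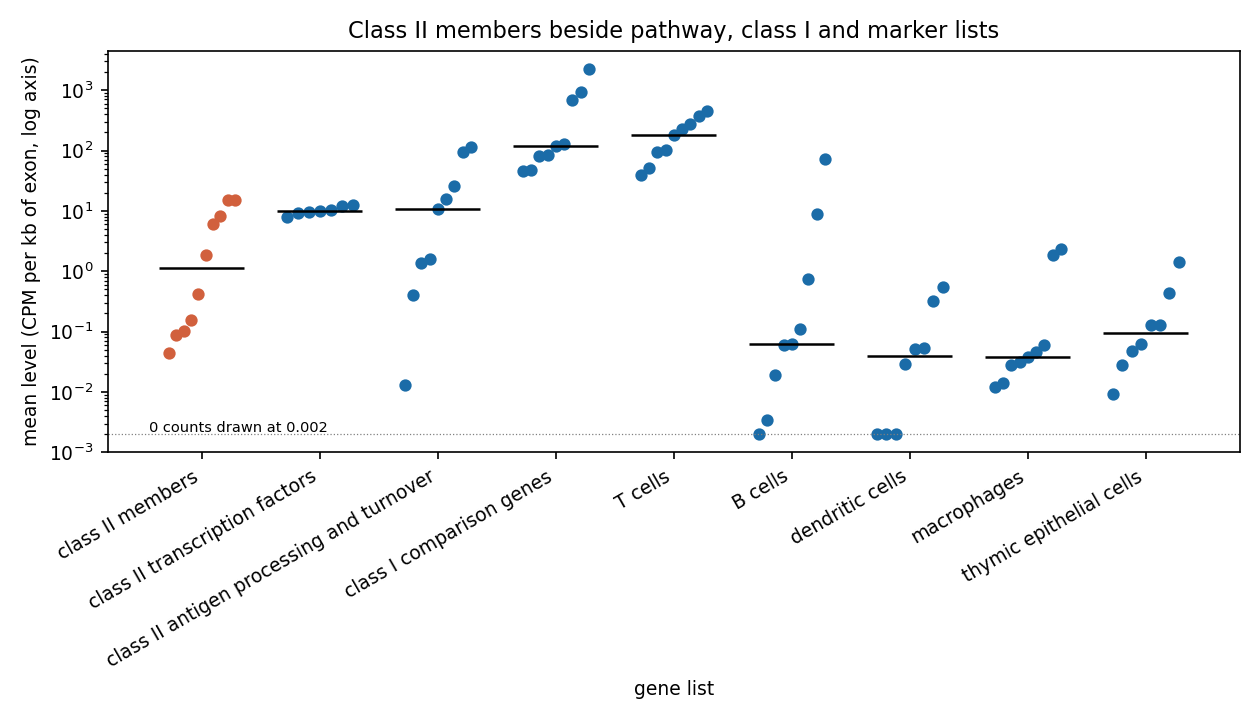
Mean level over both libraries in CPM per kb of exon (log axis), with 1 point per gene and a bar at the median of each list, for the 10 class II members (orange) and the comparison lists (blue). The members spread from 0.0443 to 15.1, the platform genes stay between 7.94 and 12.3, and the class I and T-cell genes lie above 39.

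Finally, replicate 1 was set against replicate 2 gene by gene. Exact binomial tests (two-sided) of the counts were run on the 15949 genes with at least 10 counts in all, and p-values were adjusted over them after Benjamini and Hochberg. The test compares these libraries and not conditions. At a fold of 2 or more with adjusted p under 0.05, 242 genes or 1.52% were called, 92 higher in replicate 1 and 150 in replicate 2, and library sizes from TMM made this split 99 and 98. None of the 9 tested members was called (0 of 9), *H2-Eb2* being under the minimum. At an adjusted p under 0.05 without regard to fold, 16.3% of all genes passed, and 2 of 9 members did, which were also the 2 with an unadjusted p under 0.05.

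These were *H2-Ab1* and *H2-DMa*, and they moved in opposite directions. *H2-Ab1* was lower in replicate 2, with a log2 ratio of replicate 2 to replicate 1 of -0.39 (exact binomial test, adjusted p = 0.00500). *H2-DMa* was higher in replicate 2, with a log2 ratio of 0.50 (exact binomial test, adjusted p = 1.01e-10), and *Brd2*, which overlaps it, had a log2 ratio of 0.14. *H2-Oa* and *H2-Ob* had log2 ratios of 0.20 and -0.06, and *Cd74* of 0.30, none past the threshold. Across the 10969 genes with at least 100 counts the middle 95% of ratios ran from -0.35 to 0.56, and *H2-Ab1* alone among the 5 members with that many counts was outside it. When edgeR's exact test was given a coefficient of biological variation of 0.1, no tested member passed (0 of 9), and the adjusted p was 1 for *H2-Ab1* and 0.743 for *H2-DMa*.

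**Figure D4:**
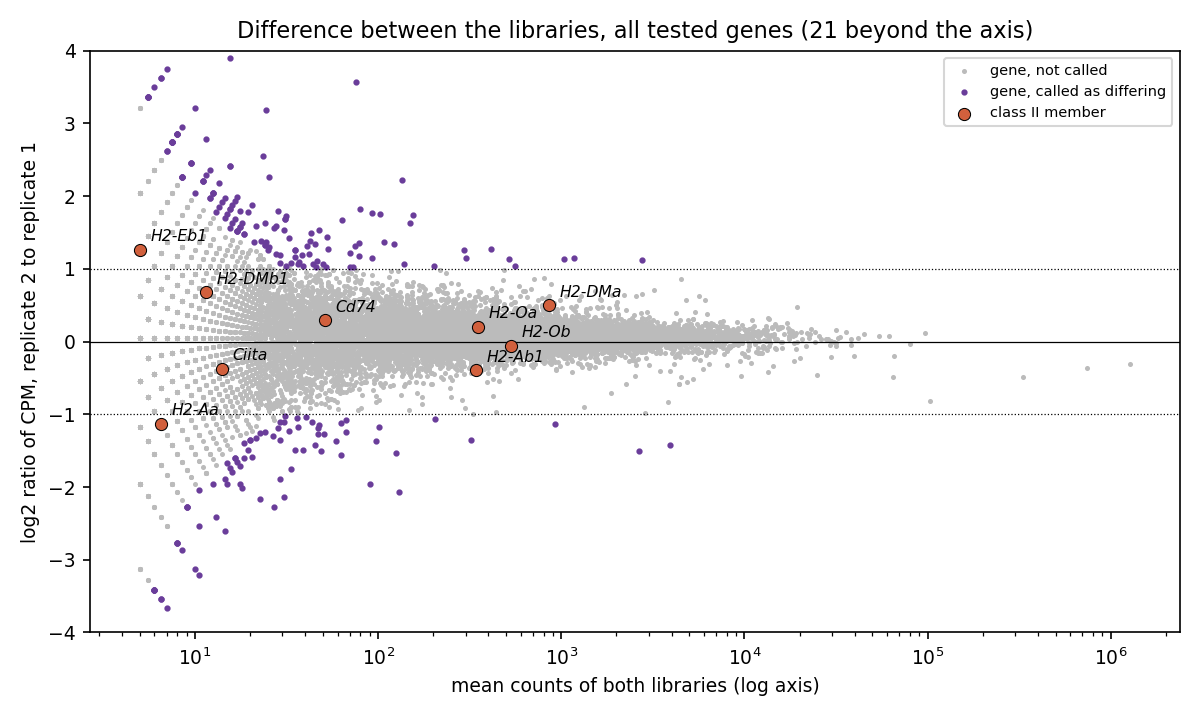
Log2 ratio of CPM of replicate 2 to replicate 1 against the mean counts of both libraries (log axis) for the tested genes, with called genes in purple, the 9 tested class II members in orange, and dotted lines at a 2-fold difference. *H2-DMa* at 0.50 and *H2-Ab1* at -0.39 lie on opposite sides of 0, and 21 genes with a log2 ratio beyond 4 in either direction are not drawn.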

How the data were processed

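Poly(A) libraries of sorted CD4- mature thymocytes from 2 replicates were sequenced as single-end reads of 50 bases. The authors mapped reads onto mm10 with TopHat2 2.1.1 and deposited raw counts per gene from HTSeq 0.6.1, without normalization. The annotation and strand setting are not given in the sources used here. Lines for unassigned reads were left out of totals, and reads assigned to no gene were 55.9% of uniquely aligned reads in both libraries. The labels do not state the number of mice behind each replicate, and sex-linked genes show that the libraries did not come from the same mouse.

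CPM was computed from the counts on genes, with mean and SD (n = 2) and Wilson 95% intervals. Positions, exon lengths and shared 50-base windows came from GENCODE M21 (GRCm38, the build of mm10), in which 46394 of 48321 symbols were found. The libraries were compared across all genes by exact binomial tests with Benjamini-Hochberg adjustment (scipy 1.17.1, Python 3.11.15), with edgeR 4.0.16 and DESeq2 1.42.0 as alternatives in R 4.3.3. Both tests were checked on counts simulated from the model that each assumes, with changes placed only in well-counted genes. The check therefore does not cover variation between mice or genes with few counts. The members and gene lists were chosen with earlier results of these data known. The genes named are the members, list genes at the extremes or marking a cell type, the protein-coding genes of the class II region, and the 3 nearest to *H2-Ab1*. The letter pair of the promoters, *Brd2* ratios, and markers named outside the extremes were chosen after values were seen. The values of 1 gene of the marker lists are not reported here.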

Additional observations from a re-analysis of the deposited data

How the results depend on the processing

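The depth limits *H2-Aa*, *H2-Eb1*, *H2-Eb2*, *H2-DMb1* and *Ciita*, whose levels rest on at most 16 counts a library. No paired analysis was possible because there is a single group. When the totals omitted 393 genes of mitochondrial or ribosomal RNA, and so were smaller, levels rose by more than 1 SD to 3.65 CPM for *Cd74*, 24.8 CPM for *H2-Oa* and 37.7 CPM for *H2-Ob*. The marker sums rose likewise to 174 CPM for B cells, 6.73 CPM for dendritic cells, 16.5 CPM for macrophages, 5.95 CPM for thymic epithelial cells and 389.7 CPM for double-positive thymocytes. With the longest transcript as length, 5 of 10 members kept their place, and the ratio of *H2-Aa* to *H2-Ab1* per kb fell from 0.0123 to 0.00686. Per kb, the *H2-Ab1* share was 96.3% against 96.1%. Calls between the libraries fell from 242 genes to 55 with at least 100 counts and to 60 with edgeR's exact test, where the members at an adjusted p under 0.05 went from 2 to 0. Leaving out a replicate moved *H2-Eb2* from 0.150 to 0.0616 (without replicate 1) or 0.239 CPM (without replicate 2), *H2-Eb1* from 0.305 to 0.179 CPM (without replicate 2) and *H2-Aa* from 0.392 to 0.246 CPM (without replicate 1), each by over 1.5 times, and the other 7 members by less. *H2-Ab1* was then at 18.0 to 23.6 CPM. With 2 libraries this shift is always under 1 SD and so is no sign of stability. TMM and DESeq2 library sizes put the log2 ratio of *H2-Ab1* at -0.47 each, and that of *H2-DMa* at 0.42 each.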

Other observations

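Listed noncoding genes of the class II region were also read. *Gm20496*, with 663 bases of exon, had 2166 and 2301 counts, and *Gm15821*, with 1210 bases of exon, had 1530 and 1607. Exons of *Gm20496* overlap those of *Psmb8* by 498 bases and of *Tap2* by 165 bases, which together cover its whole exon length. Exons of *Gm15821* overlap those of *Tap2* by 533 bases. All these overlaps are on the opposite strand, so reads in these stretches cannot be assigned with certainty. *Gm20513*, whose span overlaps that of *H2-Eb1* on the opposite strand, had 0 counts in both libraries.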
